A study of Mus musculus with 6 samples.

Results

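The 7 microRNAs described here are the 5 members of the miR-200 family (miR-200a-3p, miR-200b-3p, miR-200c-3p, miR-141-3p and miR-429-3p) together with miR-205-5p and miR-375-3p. They were picked by name from the deposited table of mature miRNA counts, whatever their values, and make up 7 of its 1281 entries. Mouse serum was profiled by small RNA sequencing after a sciatic nerve allograft, in which a Balb/c donor nerve segment bridged a cut sciatic nerve. Tested mice received FK506 (tacrolimus, which blocks calcineurin and so the activation of T cells) subcutaneously at 1 mg/kg per day and gave serum at day 3, 7 or 14 after surgery. Comparison mice had the same allograft without FK506 and gave serum on the same days. All were male and 10 to 12 weeks old. The recipients are named C57BL/6 in one place of the labels and Balb/c in another. There was 1 library for each treatment and day, 6 in all. The labels speak of 3 animals for each group and time, without saying whether the serum in a library came from 1 of them or from several. No group without a graft was analysed here.

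MicroRNAs are short RNAs that pair with messenger RNAs, mainly through bases 2 to 8 at their 5′ end (the seed), and lower the output of those messages. The miR-200 family is abundant in epithelial cells, where it represses Zeb1 and Zeb2, transcription factors that drive epithelial cells towards a mesenchymal state. miR-205-5p is typical of skin and other stratified epithelia and also targets the Zeb factors. miR-375-3p is best known from pancreatic islets, where it restrains insulin secretion, and is also made in gut and pituitary cells.

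The mature sequences are shown because the 5 miR-200 members differ from each other by only a few bases, which bears on how their reads can be counted. They are RefSeq sequences on GRCm38.p6, matched for 6 of the 7 members, with the seed in capitals. All 6 lie on the minus strand, and the lines below carry the coordinates of the mature RNA.

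miR-200b-3p, chr4:156055685-156055706: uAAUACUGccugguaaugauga

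miR-429-3p, chr4:156053916-156053937: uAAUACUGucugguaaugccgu

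miR-200c-3p, chr6:124718324-124718346: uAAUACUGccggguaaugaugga

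miR-200a-3p, chr4:156054911-156054932: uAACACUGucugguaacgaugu

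miR-141-3p, chr6:124717917-124717938: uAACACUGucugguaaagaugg

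miR-205-5p, chr1:193507503-193507524: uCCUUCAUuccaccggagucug

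The family carries 2 seeds that differ by 1 base. Counted from the 5′ end, miR-200a-3p differs from miR-200b-3p within the seed at U4C (the base of miR-200b-3p first). miR-200b-3p, miR-200c-3p and miR-429-3p share one seed, and miR-200a-3p and miR-141-3p share the other. No other mature miRNA among the 1679 in the RefSeq table has any of these 3 seeds. Over the first 22 bases, miR-141-3p differs from miR-200a-3p at 2 positions, C17A and U22G, and miR-200c-3p differs from miR-200b-3p at 2 positions, U11G and A22G (the base of the second-named miRNA first). The labels allow fewer than 3 terminal mismatches per read, and how reads matching several entries were treated was not stated in the sources used. Of these differences, C17A and U11G lie inside the sequence, and whether mismatches there were allowed was not stated in the sources used. The split of reads within each of these pairs is therefore uncertain. The summed family is less affected only if each read was counted once. If reads were counted in every entry they matched, the sum would hold some reads more than once.

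The seed groups cut across the genes. In GRCm38 with the GENCODE M21 annotation, Mir200b, Mir200a and Mir429 lie within 1846 bases of chromosome 4 (156053905 to 156055750) in an intron of Ttll10, with Mir429 also in an exon of the noncoding transcript Gm13648. Mir141 and Mir200c lie within 477 bases of chromosome 6 (124717914 to 124718390), outside coding genes, in an intron of the antisense transcript Gm15884 between Phb2 and Ptpn6, and Mir141 also overlaps an exon of the transcript model Gm29008. Mir205 (chromosome 1, 193507463 to 193507530) sits in an exon of the lincRNA 4631405K08Rik. Mir375 (chromosome 1, 74900658 to 74900721) overlaps no annotated gene and lies 7515 bases from Cryba2 and 1350 bases from Cfap65.

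The depth available to these miRNAs was small. Library totals ran from 4897727 to 5806228 reads, but miR-486-5p and miR-3107-5p, a pair of red cell entries with overlapping sequence, took 93.8% to 97.97% of them. That left 104574, 103058 and 359061 reads in the FK506 libraries at days 3, 7 and 14, against 160163, 298117 and 158423 in the untreated libraries. Red cell lysis, read as miR-451a reads per miR-23a-3p read, stood at 23.5, 13.7 and 26.4 in FK506 serum, against 21.0, 43.6 and 14.5 in untreated serum. The untreated day 7 library stood apart in another way. Its 5 nervous system miRNAs summed to 10027 reads, against 145, 282 and 459 in FK506 serum and 97 and 109 in the other untreated libraries. miR-9-5p had 7683 reads there and 1 read in the other 5 libraries together, and miR-124-3p had 182 reads there and 0 elsewhere. The part of these features in the results below was not tested.

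miR-375-3p was by far the most abundant of the 7, miR-205-5p was intermediate and the miR-200 family was near the limit of detection. miR-375-3p had 1704, 1221 and 2528 reads in FK506 serum at days 3, 7 and 14, against 1327, 1055 and 1303 reads in untreated serum. It supplied 89.5% to 95.05% of the members' reads in every library. By read count it ranked 19, 21 and 30 among all entries in FK506 serum, against 22, 36 and 25 in untreated serum. miR-205-5p had 112, 66 and 160 reads in FK506 serum, against 50, 38 and 57 reads in untreated serum. Every FK506 count of miR-205-5p lay above every untreated count, before any scaling for depth. The share of all miRNAs with that pattern in unscaled counts was not worked out.

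The 5 miR-200 members together had 241 reads in all 6 libraries, of which 138 came from FK506 day 14. Their sum was 15, 28 and 138 reads in FK506 serum at days 3, 7 and 14, against 25, 17 and 18 reads in untreated serum. miR-141-3p had 9, 12 and 57 reads in FK506 serum, against 8, 9 and 10 reads in untreated serum. It was the one member of the family with reads in every library. miR-429-3p had 3, 7 and 54 reads in FK506 serum, against 2, 8 and 0 reads in untreated serum. miR-200a-3p had 2, 4 and 20 reads in FK506 serum, against 8, 0 and 6 reads in untreated serum. Those members were highest in the FK506 day 14 library, which also had the most reads outside the red cell pair. miR-200b-3p had 0, 3 and 7 reads in FK506 serum, against 4, 0 and 2 reads in untreated serum. miR-200c-3p had 1, 2 and 0 reads in FK506 serum, against 3, 0 and 0 reads in untreated serum. For miR-200b-3p and miR-200c-3p no difference between treatments was detectable at this depth.

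A count of 50 reads was used as the minimum for a comparison. miR-375-3p passed it in all 6 libraries and miR-205-5p in all but untreated day 7, where it had 38 reads. All 5 miR-200 members were under 50 reads in FK506 day 3, FK506 day 7 and all 3 untreated libraries. In FK506 day 14, miR-200a-3p, miR-200b-3p and miR-200c-3p were under 50 reads, and miR-429-3p and miR-141-3p were just above it with 54 and 57 reads. Reads at 0 were seen for 1, 0 and 1 members in the FK506 libraries, against 0, 3 and 2 members in the untreated libraries. A count of 0 allows up to 3 reads. The opposite arms of the 7 hairpins had 5 reads in all, against 9862 reads for the members.

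**Figure D1:**
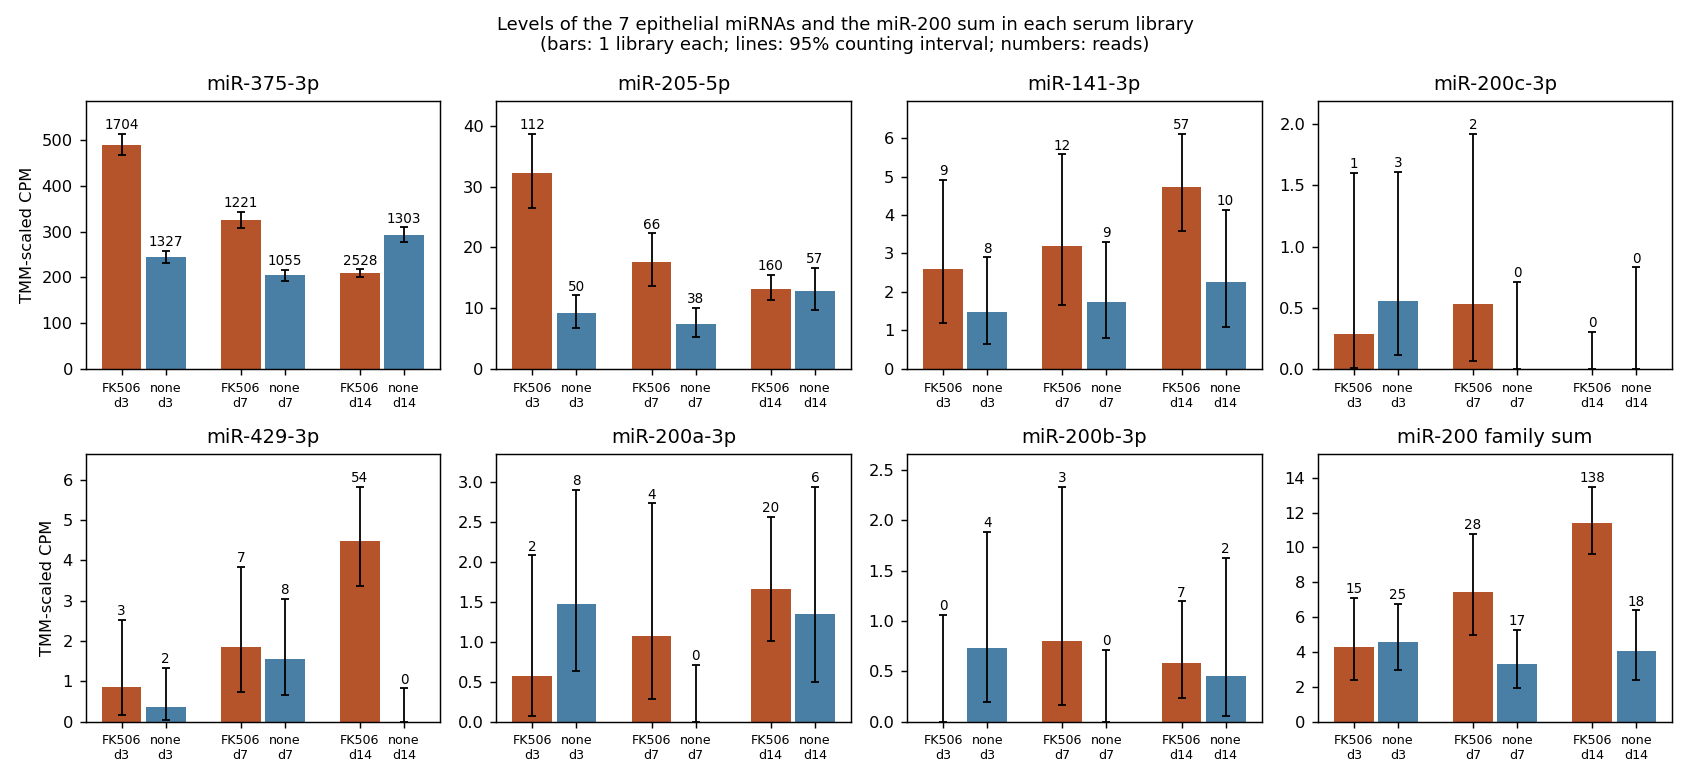
TMM-scaled CPM of each of the 7 miRNAs and of the miR-200 sum, 1 panel each with its own axis from 0; each bar is 1 library, with FK506 left of untreated (labelled none) at days 3, 7 and 14, black lines are exact 95% counting intervals, and the numbers are reads. miR-375-3p lies between 204 and 490 CPM, miR-205-5p between 7.35 and 32.2 CPM, and the single miR-200 members at or under 4.72 CPM.

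For comparison between libraries the counts were scaled by TMM, an edgeR method that sets a common level from the bulk of the miRNAs, and expressed as CPM, counts per 1000000 scaled reads. On this scale miR-375-3p stood at 490, 325 and 209 CPM in FK506 serum at days 3, 7 and 14, against 244, 204 and 293 CPM in untreated serum. The arms averaged 341.4 ± 141.01 CPM in FK506 serum and 247 ± 44.5 CPM in untreated serum (SD over days, n = 3 libraries each), and their values overlapped. miR-205-5p stood at 32.2, 17.6 and 13.2 CPM in FK506 serum, against 9.19, 7.35 and 12.8 CPM in untreated serum. The averages were 21.0 ± 9.93 CPM in FK506 serum and 9.79 ± 2.78 CPM in untreated serum (SD, n = 3 each). The 3 FK506 values lay above the 3 untreated ones, with a margin at day 14 smaller than the counting error. The summed miR-200 family stood at 4.31, 7.45 and 11.4 CPM in FK506 serum, against 4.59, 3.29 and 4.05 CPM in untreated serum. Its FK506 average was 7.73 ± 3.56 CPM, and its untreated average was 3.98 ± 0.655 CPM (SD, n = 3 each). The family's groups overlapped, since FK506 day 3 lay below untreated day 3. Within the family, miR-141-3p stood at 2.59, 3.19 and 4.72 CPM in FK506 serum, against 1.47, 1.74 and 2.25 CPM in untreated serum. These values did not overlap, but their counting intervals did, from 1.18 to 4.91 CPM for FK506 day 3 and from 1.08 to 4.14 CPM for untreated day 14. As a share of the library total, miR-141-3p in FK506 day 3 lay below untreated day 14. Of the 153 miRNAs kept for the test across days, 10.5% had all 3 FK506 CPM values above all 3 untreated ones. miR-205-5p is among the 153 and miR-141-3p is not, so that share is no direct background for miR-141-3p. In serum, release by more cells and more release per cell cannot be told apart.

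Relative to the reads outside the red cell pair, miR-205-5p held 1071, 640 and 446 reads per 1000000 in FK506 serum, against 312, 127 and 360 in untreated serum. The 3 FK506 values again lay above the 3 untreated ones, a pattern whose share over all miRNAs was not worked out on this basis. The FK506 libraries at days 3 and 7 had fewer reads outside the pair than any untreated library. miR-375-3p held 16295, 11848 and 7041 reads per 1000000 on that basis in FK506 serum, against 8285, 3539 and 8225 in untreated serum. Its day 14 FK506 value lay below 2 of the 3 untreated values.

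At day 3, miR-205-5p and miR-375-3p were higher with FK506 while the miR-200 family was not. A miRNA passed the size rule when its log2 ratio of TMM-scaled counts, with a prior count of 2, reached 1 in either direction and 1 of the 2 libraries held at least 50 reads. With 1 library per group there is no replicate check and no p-value, and intervals cover counting error only. miR-205-5p had 112 reads in FK506 serum and 50 in untreated serum, a log2 ratio of 1.77 and a scaled fold of 3.50 (95% interval 2.49 to 4.99). miR-375-3p had a log2 ratio of 1.01 and a fold of 2.01 (1.87 to 2.16), at the edge of the rule. The summed miR-200 family, with 15 reads in FK506 serum and 25 in untreated serum, had a fold of 0.939 (0.460 to 1.85). Of the members, 2 had enough reads to be compared, and 2 passed the rule as higher and 0 as lower. Over all 99 miRNAs compared at day 3, 21.2% passed as higher and 11.1% as lower, with a median log2 ratio of 0.04. miR-375-3p dropped below the rule under each other scaling, with a lowest log2 ratio of 0.40 for the library total, and miR-205-5p stayed above it in 9 of 9 alternatives.

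At day 7, on the TMM scale, miR-205-5p was higher with FK506 and miR-375-3p fell short of the rule. miR-205-5p had 66 reads in FK506 serum and 38 in untreated serum, a log2 ratio of 1.22 and a fold of 2.39 (1.58 to 3.66). miR-375-3p had a log2 ratio of 0.67 and a fold of 1.59 (1.47 to 1.73). Both calls turned on the scaling, since miR-205-5p fell short at 0.72 with the library total, and miR-375-3p passed at 1.74 with the reads outside the red cell pair, a fold of 3.35. The miR-200 family sum, at 28 reads in FK506 serum and 17 in untreated serum, had a fold of 2.27 (1.20 to 4.41), and miR-141-3p one of 1.83 (0.709 to 4.93). Of the 2 members compared, 1 passed as higher and 0 as lower, against 19.4% and 46.5% of all 129 miRNAs compared. The median log2 ratio of the 129 was -0.74 on the TMM scale and 0.33 with the reads outside the red cell pair, and both members lay above it in either case. That untreated library is the one with 10027 nervous system reads. Set against untreated day 14 instead, FK506 day 7 had a log2 ratio of 0.44 for miR-205-5p and 0.15 for miR-375-3p, and against untreated day 3 it had 0.91 and 0.41 for the same miRNAs, none past the rule.

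At day 14 the order turned. miR-429-3p was higher with FK506. On the TMM scale, miR-205-5p had a fold near 1 and miR-375-3p was lower. miR-429-3p had 54 reads in FK506 serum and 0 in untreated serum, a fold of at least 6.63 against the floor of 3 reads, or of 5.21 at the lower end of the exact 95% counting interval. miR-141-3p had 57 reads in FK506 serum and 10 in untreated serum, a fold of 2.10 (1.06 to 4.61) and a log2 ratio of 0.96, just short of the rule, which it reached in 6 of 8 alternatives, with up to 2.18 for the library total. The family sum, 138 reads in FK506 serum and 18 in untreated serum, had a fold of 2.82 (1.72 to 4.90) and a log2 ratio of at least 1.38 in each of 8 alternatives. miR-205-5p had a fold of 1.03 (0.759 to 1.42), and with the library total it passed the rule at a log2 ratio of 1.34 and a fold of 2.59 (1.90 to 3.57). miR-375-3p had a fold of 0.714 (0.668 to 0.764) and a log2 ratio of -0.49, and scaling to the library total turned it to 0.84. That scaling shifts the median of all miRNAs compared at day 14 by 1.31, so miR-375-3p lay below that median in either case. Of the 4 members compared, 1 passed as higher and 0 as lower, against 20.8% and 15.4% of all 130 miRNAs. miR-429-3p and miR-141-3p reached the minimum only through the FK506 library, so their place among those compared already depended on being high there.

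**Figure D2:**
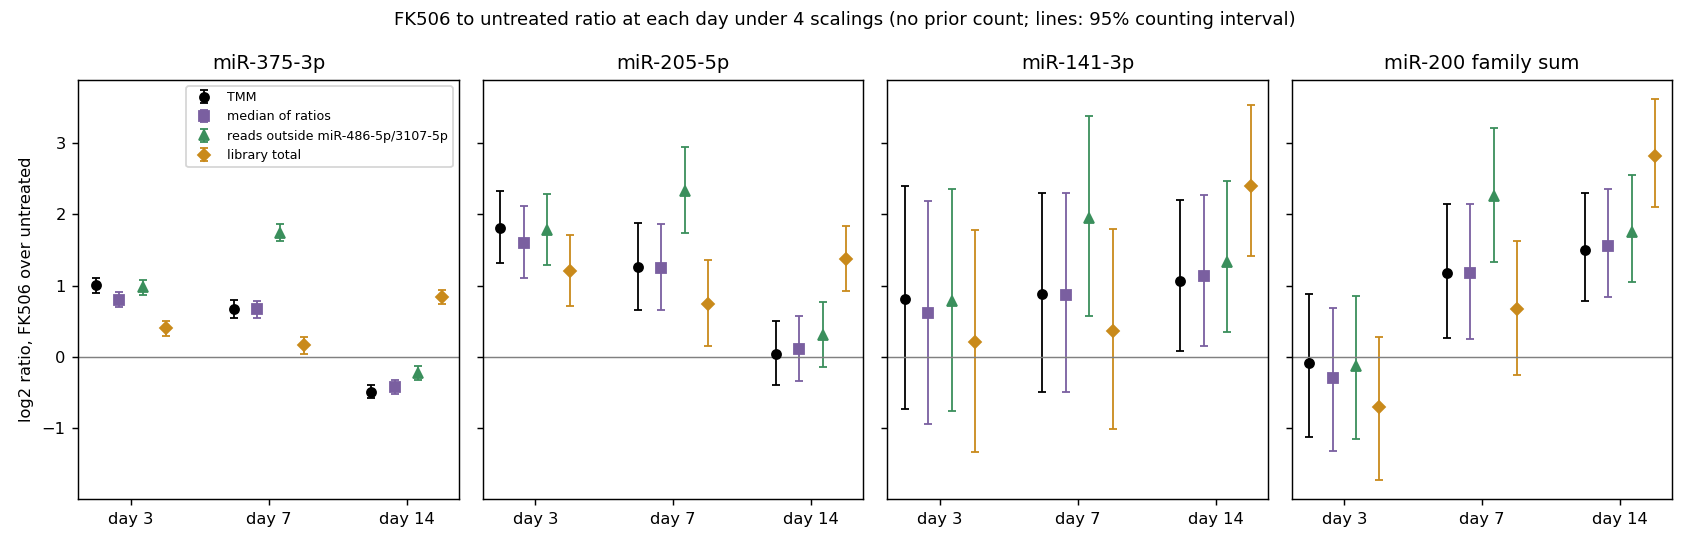
Log2 ratio of FK506 over untreated at days 3, 7 and 14 for miR-375-3p, miR-205-5p, miR-141-3p and the miR-200 sum, with a marker for each of 4 scalings, no prior count, and lines for exact 95% counting intervals; each marker compares 1 library with 1 library. miR-205-5p lies above 0 at all 3 days under these 4 scalings, but its day 14 interval includes 0 under all except the library total. miR-375-3p at day 14 is -0.49 with TMM and 0.84 with the library total.

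Across days, neither of the 2 members with enough reads for a test passed it. A model with treatment and day was fitted with edgeR's quasi-likelihood test to the 153 miRNAs kept by a filter on low counts. It left 2 residual degrees of freedom, and the 3 days stood in for replicates of an arm. With day in the model, the error is the variation of the treatment difference between days, moderated by the spread of all miRNAs fitted. Each SE here and below was worked back from the log2 change and the test's F value. miR-205-5p had a log2 change of 1.04 ± 0.658 (SE), an unadjusted p of 0.138 and a Benjamini-Hochberg adjusted p of 0.609 by edgeR. It was higher with FK506 on 3 of 3 days, though at day 14 only by a fold of 1.03 whose counting interval holds 1. miR-375-3p had 0.40 ± 0.633 with an adjusted p of 0.894 by edgeR, and was higher on 2 of 3 days. The 5 miR-200 members were not kept by the filter. edgeR called 0 of 153 miRNAs (0%), with 17 at an unadjusted p under 0.05, none of them members. DESeq2 called 5 and limma 1, again with 0 members. Without the FK506 day 14 library edgeR called 3, and without the untreated day 14 library 1. Over 13 alternatives the adjusted p of miR-205-5p ran from 0.290 to 0.984, and that of miR-375-3p from 0.675 to 0.984. All 3 FK506 values lay above all 3 untreated values for 1 of the 2 members in the fit, miR-205-5p, against 10.5% of the 153 miRNAs.

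Over time, miR-205-5p and miR-375-3p had lower TMM-scaled values in FK506 serum at the later days, and the miR-200 family had higher ones. At day 7 against day 3 in FK506 serum, the log2 ratio was -0.86 for miR-205-5p and -0.59 for miR-375-3p, and that of the family sum was 0.74. None of the 2 members compared passed the rule, against 3.23% higher and 6.45% lower of all 93 miRNAs. At day 14 against day 3 in FK506 serum, miR-205-5p was 2.43-fold lower and miR-375-3p 2.34-fold lower, with log2 ratios of -1.26 and -1.23. miR-429-3p was 5.18-fold higher there (1.68 to 25.9), with 54 reads at day 14 and 3 at day 3, and the family sum was 2.65-fold higher (1.55 to 4.86). Of the 4 members compared, 1 passed as higher and 2 as lower, against 10.2% and 16.4% of all 128 miRNAs. miR-429-3p and miR-141-3p reached the minimum only through day 14, where they were high. Scaled to the library total, both falls reversed, to log2 ratios of 0.29 for miR-205-5p and 0.35 for miR-375-3p, while the median of all 128 shifted by 1.56.

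In untreated serum miR-205-5p and miR-375-3p stayed within the rule on the TMM scale. At day 7 against day 3 the log2 ratio was -0.31 for miR-205-5p and -0.26 for miR-375-3p, with 0 of the 2 members compared past the rule, against 47.7% higher and 14.1% lower of all 128 miRNAs. Scaled to the reads outside the red cell pair, both passed as lower there. At day 14 against day 3 it was 0.47 for miR-205-5p and 0.26 for miR-375-3p, again with 0 of 2 past the rule, against 10.8% higher and 6.86% lower of all 102 miRNAs. The comparisons within an arm share its day 3 library. Whether the time course differed between the arms was not tested.

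Ratios of reads within a library need no scaling between libraries. The ratios that follow were chosen after the values had been seen. miR-205-5p had 6.57, 5.41 and 6.33 reads per 100 miR-375-3p reads in FK506 serum at days 3, 7 and 14, against 3.77, 3.60 and 4.37 in untreated serum. The groups did not overlap, and the ratio was 1.74, 1.50 and 1.45 times as high with FK506 at the 3 days. The counting intervals were 5.38 to 7.96, 4.15 to 6.93 and 5.36 to 7.43 in FK506 serum, against 2.78 to 5.00, 2.53 to 4.98 and 3.29 to 5.70 in untreated serum. They separate FK506 from untreated serum at day 3 and overlap at days 7 and 14. Of all 152 other miRNAs in the fit set over miR-375-3p in this way, 6.58% had all 3 FK506 values above all 3 untreated ones. With 3 libraries against 3, a two-sided exact permutation test cannot give a p below 0.1.

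**Figure D3:**
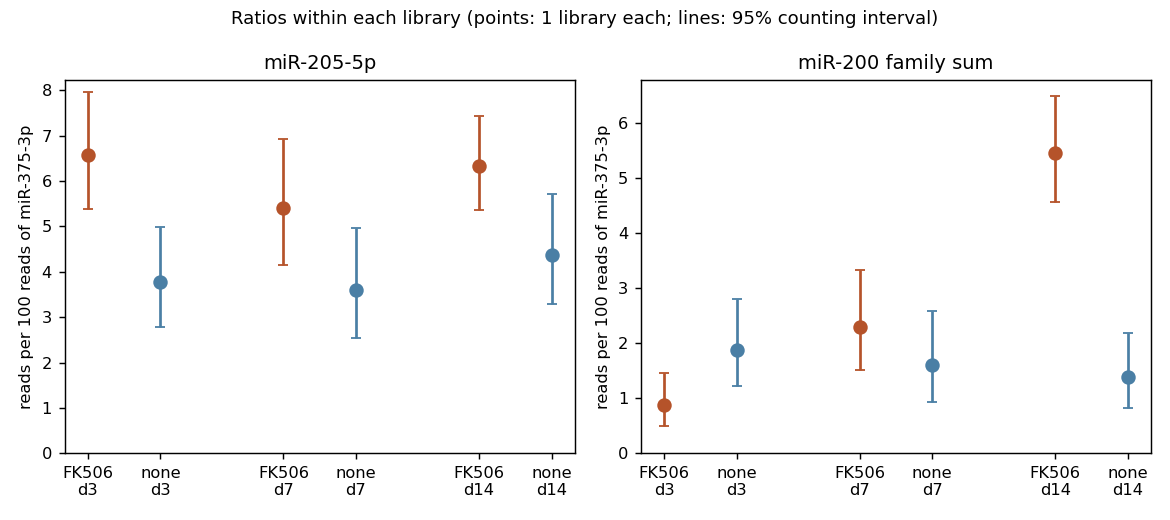
Reads per 100 miR-375-3p reads in each library for miR-205-5p and for the summed miR-200 family, FK506 left of untreated (labelled none) at days 3, 7 and 14; points are single libraries and lines are exact 95% counting intervals. miR-205-5p lies between 5.41 and 6.57 in FK506 serum and between 3.60 and 4.37 in untreated serum, and the family reaches 5.46 in FK506 day 14.

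The miR-200 family gave a different picture on the same basis. It had 0.880, 2.29 and 5.46 reads per 100 miR-375-3p reads in FK506 serum at days 3, 7 and 14, against 1.88, 1.61 and 1.38 in untreated serum. The FK506 value lay below the untreated one at day 3 and above it at days 7 and 14. The counting intervals were 0.492 to 1.46, 1.52 to 3.33 and 4.57 to 6.48 in FK506 serum. In untreated serum they were 1.21 to 2.79, 0.935 to 2.59 and 0.816 to 2.19. They overlap at days 3 and 7 and separate the treatments at day 14 only. miR-141-3p alone had 0.528, 0.983 and 2.25 per 100 in FK506 serum, against 0.603, 0.853 and 0.767 in untreated serum. Set over miR-205-5p, the family had 0.134, 0.424 and 0.863 reads per read in FK506 serum, against 0.5, 0.447 and 0.316 in untreated serum. The ratio in FK506 serum was thus lowest at day 3 and highest at day 14 of the 6 libraries. The FK506 day 3 interval, 0.0725 to 0.230, overlaps that of untreated day 14, 0.175 to 0.544. The FK506 day 14 interval, 0.682 to 1.09, overlaps that of untreated day 3, 0.296 to 0.824.

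Within the family, reads came from both gene clusters and both seeds. The chromosome 4 cluster gave 130 reads in all and the chromosome 6 cluster 111. The chromosome 4 cluster had 0.5, 1 and 1.42 reads per chromosome 6 read in FK506 serum, against 1.27, 0.889 and 0.8 in untreated serum. The counting interval held 1 in all libraries except FK506 day 14, where it ran from 1.00 to 2.03. The seed shared by miR-200b-3p, miR-200c-3p and miR-429-3p gave 96 reads in all, and that of miR-141-3p and miR-200a-3p gave 145. miR-429-3p had 0.333, 0.583 and 0.947 reads per miR-141-3p read in FK506 serum, against 0.25, 0.889 and 0 in untreated serum. The 0 at untreated day 14 has an upper limit of 0.446, under the FK506 day 14 value.

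**Figure D4:**
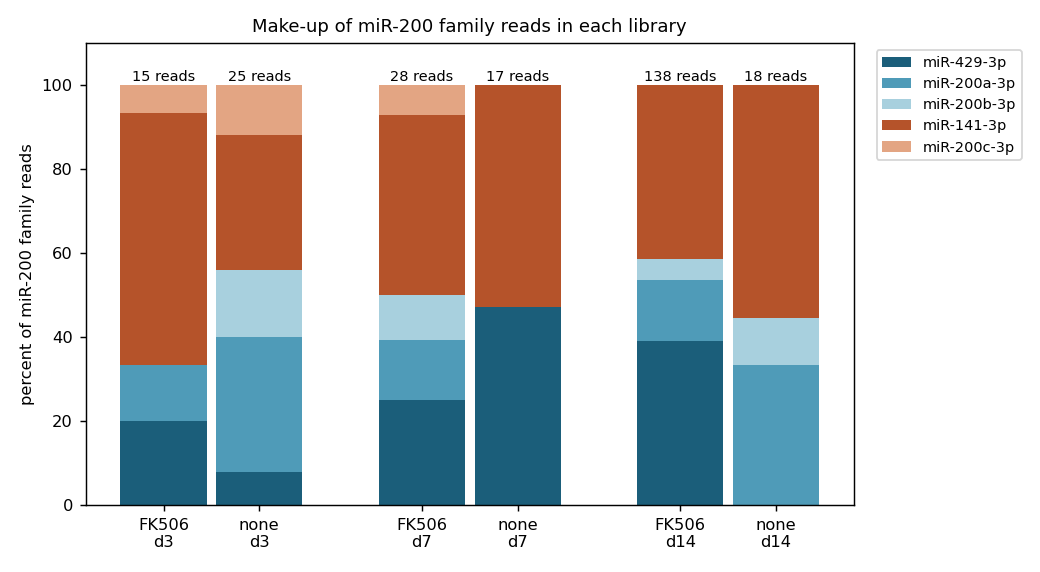
Percent of the miR-200 family reads that came from each of the 5 members, 1 stacked bar per library with its reads above, FK506 left of untreated (labelled none) at days 3, 7 and 14; blue members come from chromosome 4 and brown ones from chromosome 6. Of 138 reads in FK506 day 14, miR-141-3p gave 41.3% and miR-429-3p 39.1%, while the other libraries rest on 15 to 28 reads each.

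Other miRNAs of the same tissues gave mixed values. Of 9 further epithelial miRNAs, 3, 3 and 4 had enough reads to be compared at days 3, 7 and 14, and 1 passed as higher and 0 as lower each day, beside the shares of all miRNAs given above for each day. That one was miR-215-5p, known from gut and kidney epithelium, with 1757, 578 and 7034 reads in FK506 serum against 925, 251 and 818 in untreated serum, or scaled folds of 2.97, 3.17 and 3.16. edgeR gave it a log2 change of 1.63 ± 0.607 (SE) and an adjusted p of 0.314. miR-192-5p, which shares its seed family and tissues, had 1256, 837 and 8363 reads in FK506 serum against 1627, 1666 and 5509 in untreated serum. Its log2 change was -0.37 with an adjusted p of 0.894 by edgeR. miR-182-5p, a sensory and epithelial miRNA, had log2 ratios of -0.07, 0.24 and -0.17 at the 3 days. The list's medians were 0.27, 0.24 and 0.10, against 0.04, -0.74 and 0.01 over all miRNAs compared.

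The pancreatic list gave almost nothing beside the abundant miR-375-3p. Its 6 miRNAs, which include the acinar miR-216a-5p and miR-217-5p and the islet miR-7a-5p, had 0 reads in 5 libraries. In FK506 day 14 miR-217-5p had 3 reads and miR-216a-5p 1 read. Among 5 miRNAs of mesenchymal cells, 2 were compared each day, with 1, 1 and 2 higher and 0, 1 and 0 lower at days 3, 7 and 14, against 21.2%, 19.4% and 20.8% higher and 11.1%, 46.5% and 15.4% lower of all miRNAs compared. Their medians were 1.23, -0.72 and 2.27. miR-199a-3p, made by fibroblasts and also by platelets, had 104, 53 and 447 reads in FK506 serum against 45, 34 and 25 in untreated serum. Its log2 change by edgeR was 1.89 ± 0.658 (SE) with an adjusted p of 0.284. Its reads were highest in FK506 day 14, the library with the most miR-200 reads. That library also had the most reads outside the red cell pair.

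**Figure D5:**
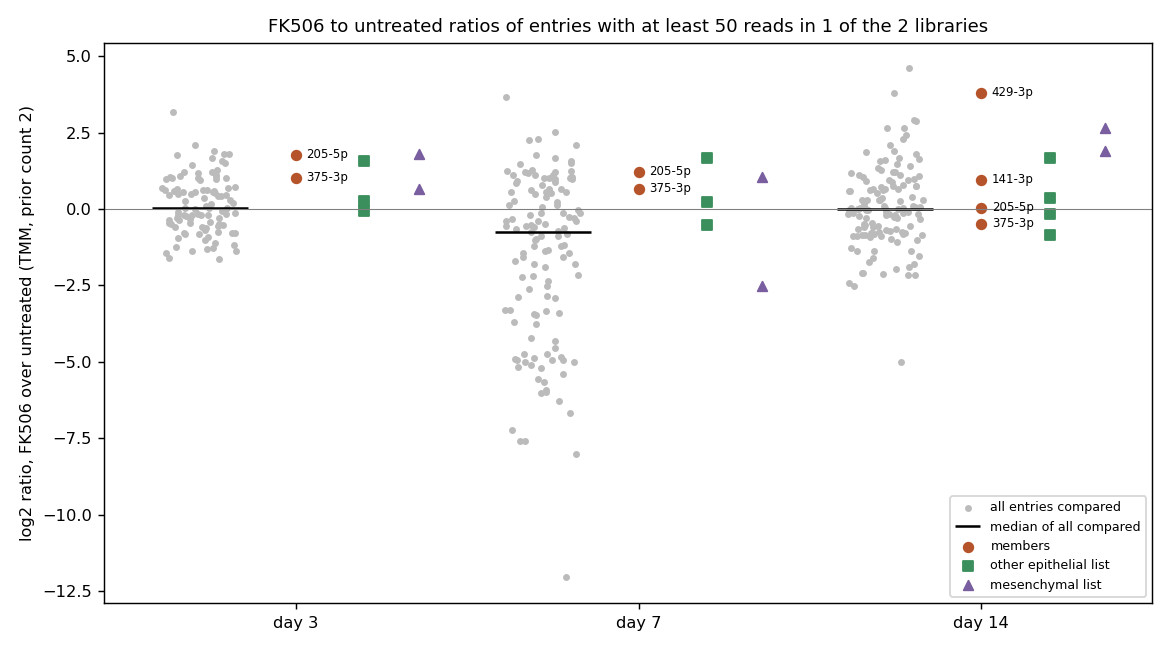
Log2 ratio of FK506 over untreated (TMM, prior count 2) at days 3, 7 and 14 for miRNAs with at least 50 reads in 1 of the 2 libraries; grey points are all miRNAs compared with their median as a black line, and coloured points are the members, the other epithelial list and the mesenchymal list. miR-205-5p stands at 1.77, 1.22 and 0.05 and miR-375-3p at 1.01, 0.67 and -0.49, the last of which turns to 0.84 with the library total.

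The miRNAs whose log2 CPM followed miR-205-5p most closely over the 6 libraries, other than the members, were miR-484 (Pearson r = 0.88), miR-150-5p (0.88), a lymphocyte miRNA, and miR-501-3p (0.81), against a median of 0.07 over 151 others. For miR-375-3p they were miR-1981-5p (0.88), miR-92a-3p (0.88) and miR-486-3p (0.86), the last 2 from loci active in red cells, against a median of 0.05. Scaled to the library total, miR-1981-5p fell to 0.49 and miR-486-3p to 0.64, and without FK506 day 3 miR-1981-5p had 0.63. Low counts underlie 2 of these values. miR-501-3p had 16, 19 and 25 reads in FK506 serum at days 3, 7 and 14, against 0, 3 and 7 in untreated serum. miR-1981-5p had 53, 24 and 39 reads in FK506 serum, against 21, 30 and 34 in untreated serum. The members miR-205-5p and miR-375-3p had an r of 0.91 with each other, and 0.72 without FK506 day 3, the library highest in both. These values describe 6 libraries that share their scaling factors, and carry no test.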

How the data were processed

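Small RNA of 6 mouse serum libraries was analysed from the authors' deposited read counts per mature miRNA, unnormalized. The labels' protocols say that short RNA was gel-selected and ligated to linkers, blood was drawn with anticoagulant, and trimmed reads were matched to miRBase with BLAST. Bowtie is named in the submitters' processing notes. Versions, genome build, the aligner's mismatch setting and multi-match handling were not stated in the sources used. Reads with several matches may be counted more than once, and ligation can favour some sequences, so levels of different miRNAs are compared only roughly. The entries miR-199a-3p and miR-199b-3p had the same log2 ratios of FK506 over untreated serum, 1.81, 1.06 and 2.64 at days 3, 7 and 14. In FK506 day 3, miR-486-5p held 2448326 of 4992998 reads, and together with miR-3107-5p 97.9% of them. Whether the entries of either pair share reads was not tested. If reads were counted in every entry they matched, the library totals would hold some of them more than once. The 6 members with a sequence differ in length by at most 1 base.

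TMM factors came from edgeR 4.0.16 (R 4.3.3) over 153 entries kept by filterByExpr with a minimum count of 10. Ratios at each day used a prior count of 2 and the size rule of a log2 ratio of 1 and 50 reads. Folds with intervals are exact 95% binomial intervals of 2 counts and cover counting error only. edgeR's quasi-likelihood test was fitted with day as a covariate and Benjamini-Hochberg adjustment (threshold 0.05), with DESeq2 1.42.0 and limma 3.58.1 as alternatives. The edgeR p-values set the treatment difference against its variation between the 3 days, moderated by the spread of all miRNAs fitted. The procedure was tested on simulated data. Python 3.11.15, pandas 2.3.3 and scipy 1.17.1 built the tables.

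The members, comparison lists and tests were chosen with earlier results of these data known. Named miRNAs are the 7 members, the listed miRNAs with enough reads, and the 3 entries most like each member kept in the fit. Counts of miR-9-5p and miR-124-3p were named after their values had been seen.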

Additional observations from a re-analysis of the deposited data

Results flagged for a closer look

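miR-375-3p changed direction between days. Its log2 ratio of FK506 over untreated serum was 1.01 at day 3 and 0.67 at day 7, and -0.49 at day 14, and the counting interval of the fold excluded 1 each time. Each day compares 1 library with 1 library, and the difference between days was not tested. Under scaling to the library total the day 14 ratio was 0.84, so the change of direction holds for the scalings other than that one.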

How the results depend on the processing

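Counts of members past the size rule were small and moved with the scaling. Day 3 members higher with FK506 fell to 1, against 2, with the library total, the reads outside the red cell pair, median-of-ratios factors, TMM without the top 3 entries, TMM over all entries, and TMM without untreated day 7 or FK506 day 14. Day 7 members higher became 0, against 1, with the library total and with untreated day 3 or day 14 as the comparison, and 2 with the reads outside the pair. Day 14 members higher became 3, against 1, with the library total, and 2 with the reads outside the pair, median-of-ratios factors, TMM over all entries, a prior count of 0.5 and TMM without untreated day 7. With the library total, FK506 day 14 against day 3 had 2 members higher and 0 lower, against 1 and 2, and reversed to 0.29 for miR-205-5p and 0.35 for miR-375-3p. With the reads outside the pair, untreated day 7 against day 3 had 2 members lower, against 0. TMM without 1 library and the exchanged untreated days were chosen after seeing the data. Calls across days, 0 with edgeR, were 3 with the reads outside the pair, 4 without the filter, 2 without the day term, 5 with DESeq2 and 1 with limma, and ran from 0 to 3 on leaving out each library. The library total moved the median of all miRNAs by -0.58, -0.51 and 1.31 at days 3, 7 and 14. The cause of these changes was not tested. Of the other alternatives, 64 counts stayed within 1.5 times. Many of those were 0 in both settings and, with so few members compared, say little about stability. Of the single values, 134 kept their direction within counting error and 29 moved beyond it. The 29 include a change of sign for miR-375-3p in untreated day 14 against day 3, from 0.26 to -0.09 with the library total. The libraries pair by day alone, and day is a term of the edgeR fit. Depth limits the miR-200 members, all under 50 reads in 5 libraries, and miR-200a-3p, miR-200b-3p and miR-200c-3p in all 6.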
